A study of Mus musculus with 2 samples.

Results

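The traced endothelial cells were the cells of the DNGR-1 traced library that carried transcripts of the lining of blood vessels. They were selected on their own counts: a cell needed a UMI (unique molecular identifier, a tag that marks 1 captured RNA molecule) of at least 5 of 8 genes, and the 8 genes together had to make up at least 0.5% of its UMIs. The 8 genes were Cldn5, Flt1, Pecam1, Ly6c1, Slco1a4, Itm2a, Cdh5 and Ly6a. They took 64 of 4825 traced cells, a share of 1.33% (95% CI 1.02 to 1.69), out of 30236 cells in both libraries. The same gate took 23906 of 25411 non-traced cells (94.1%), and these served as the comparison.

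The cells came from the spinal cords of adult C57BL/6j mice, 10 to 12 weeks of age, and were profiled with a droplet-based method that reads the 3′ ends of transcripts in single cells. All mice had the genotype Clec9a cre/cre, with Cre recombinase in both alleles of the gene that encodes the receptor DNGR-1, and R26 LSLtdTomato/LSLtdTomato, a fluorescent reporter silenced by a stop cassette between loxP sites. After myelin was removed, live CD45- CD133+ cells were sorted into a tdTomato-positive tube (CD133+ DNGR-1 traced) and a tdTomato-negative tube (CD133+ non-traced), and each tube gave 1 library. There was thus 1 sample per group, with no replicate and no test between the groups, and all intervals below cover counting error only. Cre acts wherever Clec9a has been active, so the label records present or past activity of that gene in a cell or its ancestors. How many spinal cords were pooled for this sort is not given in the sources used here.

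Endothelial cells of the brain and spinal cord are joined by tight junctions and carry transporters that make up the blood-brain barrier. Along the vessel they change from arterial through capillary to venous, and each zone uses a partly different set of genes. DNGR-1 is best known from conventional dendritic cells, in which it senses dead cells, and CD133 (prominin 1, encoded by Prom1) is made by ependymal and by some endothelial cells.

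The gate left a wide gap in the traced library. 62 members had a UMI of all 8 genes and 2 had a UMI of 7. Outside the gate, 4205 traced cells had none of the 8 genes, 548 had 1 and 8 had 2, and no traced cell had 3 to 6. The member with the lowest share had 0.669% of its UMIs from the 8 genes, and the highest share outside was 0.0931%, in a cell with 1 of the genes. In the non-traced library the edge was less empty: the lowest share inside was 0.509%, and 1 cell outside reached 2.31% with 4 genes. The plot of endothelial against ependymal transcripts shows this gap.

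**Figure D1:**
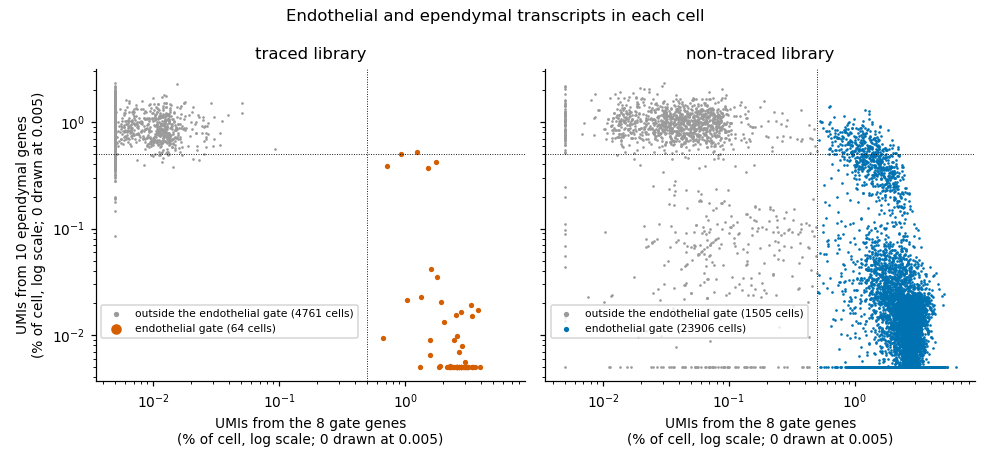
Each point is 1 cell, with the share of its UMIs from the 8 gate genes (x axis, percent, log scale) and from 10 ependymal genes (y axis, percent, log scale; shares of 0 are drawn at 0.005), for the traced library (left) and the non-traced library (right). Dotted lines mark 0.5%; the 64 members sit apart from the other traced cells, and 5 of them lie near the ependymal line.

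Members held 2172 to 28574 UMIs (median 9228), and the non-traced endothelial cells 1075 to 70509 (median 7262.5). Summed, the members gave 679692 UMIs, so that 3 UMIs were worth 4.41 CPM (counts scaled to a sum of 1000000), the unit of all levels below. Levels are compared between groups of cells and not between genes. No member's barcode occurred in both libraries, whereas 39 non-traced endothelial cells had one of the 42 shared barcodes. Mitochondrial genes gave a median of 2.15% of a member's UMIs (1.04 to 5.76) and 3.39% of a non-traced endothelial cell's (0.0820 to 11.8). They were lower in traced than in non-traced ependymal cells too (4.08% against 5.79% of summed UMIs).

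The members carried the broader set of endothelial genes at levels near those of the non-traced cells. Of 27 pan-endothelial genes outside the gate, all 27 had at least 50 CPM and none differed by 1 or more on the log2(CPM + 1) scale. Of all 3946 genes of at least 50 CPM in either sum, 97.4% differed by less than 1. The median difference of the 27 was -0.09, against 0.05 over all 3946 genes. Egfl7, a secreted vessel protein, stood at 1795 CPM in members and 1806 in non-traced cells, and a UMI of it was found in 64 of 64 members. Tek, the angiopoietin receptor, stood at 341 CPM against 315. The members of the list that lay farthest apart were Ctla2a (611 against 1111 CPM, a difference of -0.86) and Adgrl4 (1265 against 787 CPM, 0.69). The gate genes themselves, which chose the cells, ranged from Cldn5, the main tight junction claudin of brain vessels, at 5161 against 7241 CPM, to Pecam1, an adhesion molecule of endothelial junctions, at 815 against 569 CPM. Across the 3946 genes the summed log2 levels of members correlated at r = 0.92 with those of non-traced endothelial cells and at r = 0.34 with those of traced ependymal cells (4616 cells with at least 5 of 10 ependymal genes, together at least 0.5% of UMIs, outside the endothelial gate). The genes were chosen by their level in the endothelial sums and not in ependymal cells, and they include the gate genes. This choice can raise the first value relative to the second. Genes within 1 sum are not independent, and the members share a library with the ependymal cells, so these values are descriptions.

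Most barrier genes were at similar levels. Of 20 blood-brain barrier transporter genes, 18 differed by less than 1, as did 97.4% of all genes. The other 2 were lower by 1 or more, against 0.507% of all genes. They were Lrp8, a lipoprotein receptor (47.1 against 101 CPM), and Slc16a1, a lactate transporter (72.1 against 153 CPM). Under some alternatives of the closing section both differed by less than 1 (at the weakest, -0.96 for Lrp8 and -0.71 for Slc16a1). The median difference of the 20 was -0.21, against 0.05 over all genes. The glucose transporter gene Slc2a1 stood at 1343 against 1488 CPM, the efflux pump gene Abcb1a at 1073 against 1243 CPM, and the thyroid hormone transporter gene Slco1c1 at 1327 against 1292 CPM. None of 9 measured junction genes, 5 caveolar genes, 10 endothelial Wnt target genes and 8 Notch pathway genes of at least 50 CPM differed by 1 or more. Since 97.4% of all genes differed by less than 1, such counts set these lists little apart. Plvap, a marker of fenestrated vessels, had no UMI in members and 0.25 CPM in non-traced cells. Of the heat shock list (10 genes), the immediate early list (18), the interferon list (13) and the MHC class I list (9), none differed by 1 or more, with medians of 0.31, -0.01, 0.08 and -0.14.

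Markers of immune cells were absent or nearly so. None of 9 microglia and macrophage genes had a UMI in the members, and Ptprc, which encodes the CD45 used to exclude leukocytes, had none. Clec9a, which lies on chromosome 6 (GRCm38, 129408862 to 129424763), had no UMI in 64 members, a level below 4.41 CPM if 3 UMIs are taken as the limit. It stood at 0.09 CPM (21 UMIs) in non-traced endothelial cells and 0.67 CPM (30 UMIs) in traced ependymal cells. All mice carried Cre in both alleles of Clec9a, and the paper treats this genotype as deficient in the gene. A low Clec9a level was thus set by the genotype and cannot speak to the identity of the members. Of the dendritic cell list, Zbtb46 stood at 48.6 CPM in members and 44.4 in non-traced cells. Batf3 had 2 UMIs in members, and none was left without the members that held ependymal genes. In traced ependymal cells Batf3 stood at 27.4 CPM. The other genes of the list had no UMI in members. Clec1b, a neighbour whose annotation overlaps Clec9a on the same strand, had 4 UMIs in 3 members (5.89 CPM) and 0.48 CPM in non-traced cells. Reads of the overlap may be counted to either gene, and without the members that held ependymal genes no UMI of Clec1b was left. Prom1, the gene behind the CD133 gate, stood at 303 CPM (263 to 347) in members and 320 (318 to 323) in non-traced endothelial cells. A UMI of it was found in 54 of 64 members (84.4%) and in 83.1% of non-traced endothelial cells, but in 8.12% of traced ependymal cells.

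The members carried the reporter at the level of the traced ependymal cells. The row of the tdTomato coding sequence with its WPRE element stood at 314.8 CPM in members (214 UMIs, 274 to 360), 66.2 in non-traced endothelial cells, 317 in traced ependymal cells and 72.5 in non-traced ependymal cells. This row follows the protein by which the cells were sorted, so its difference between libraries checks the label and is no further finding. After every cell was thinned to 1000 UMIs, 19 of 64 members had a UMI of it (29.7%, 18.9 to 42.4), against 6.29% of non-traced endothelial cells and 27.4% of traced ependymal cells. Without thinning the shares were 81.3%, 40.8% and 88.8%, at median depths of 9228, 7262.5 and 8583 UMIs. The share in non-traced endothelial cells lay close to that in non-traced ependymal cells (7.33% thinned), which were sorted as tdTomato-negative as well.

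The members differed from the ependymal cells of their library in the transcripts of the stop cassette. The SV40 poly(A) row comes from the stop cassette, which Cre removes, and the bGH poly(A) row from the end of the tdTomato unit. In members the SV40 row stood at 1589 CPM (1496 to 1687), near the 1685 CPM of non-traced endothelial cells, whereas traced ependymal cells had 291 CPM and non-traced ones 787 CPM. The bGH row stood at 850 CPM (782 to 923) in members, 184 in non-traced endothelial cells and 912 in traced ependymal cells. The bGH share of both rows was 34.9% in members (32.6 to 37.2), 9.84% in non-traced endothelial cells (9.75 to 9.93), 75.8% in traced ependymal cells (75.5 to 76.2) and 22.1% in non-traced ependymal cells. Members thus fell between the non-traced cells of their own type and the traced ependymal cells. The 2 rows may be captured with different efficiency, so this share is not the share of recombined alleles. The bGH row belongs to the tdTomato unit, so contrasts of this share between libraries, here and below, partly follow the sort. To that extent they check the label, as the tdTomato row does.

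Single members spanned the whole range of this share, from 0% to 100%, with a median of 36.3% and quartiles of 12.5% and 60.0%. The median in non-traced endothelial cells was 8.33%. The bGH row exceeded the SV40 row in 20 of 64 members (31.3%, 20.2 to 44.1), in 0.251% of non-traced endothelial cells and in 81.0% of traced ependymal cells. At the other end, the SV40 row was at least 5 times the bGH row in 19 of 64 members (29.7%), in 82.0% of non-traced endothelial cells and in 1.30% of traced ependymal cells. In 9 members (14.1%) this went together with no tdTomato UMI, a pattern found in 50.6% of non-traced endothelial cells. The SV40 row was at 0 in 3 members, and 2 members had neither a tdTomato nor a bGH UMI. Of the other parts of the construct, the chimeric intron row stood at 352 CPM against 474 CPM in non-traced cells, and the NeoR/KanR row at 42.7 against 46.9 CPM.

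**Figure D2:**
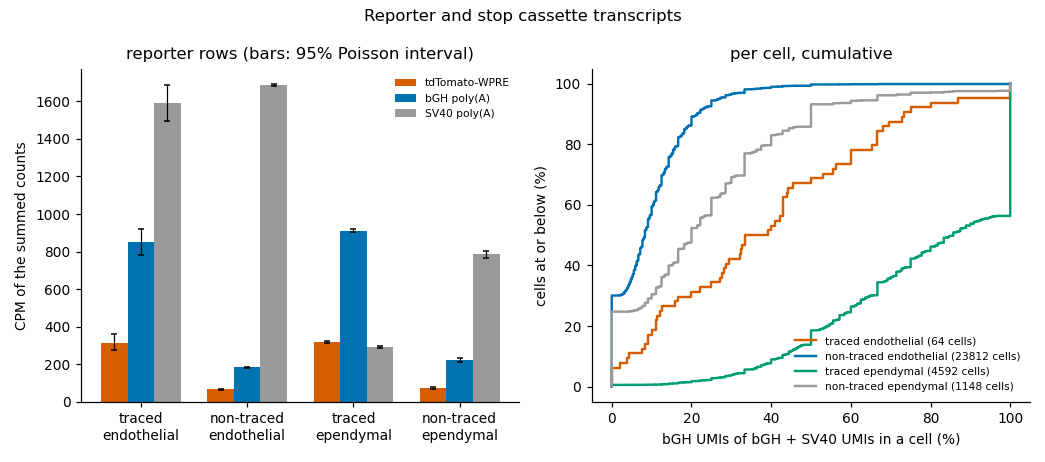
Left, levels of 3 reporter rows (y axis, CPM of summed counts; bars are 95% Poisson intervals) in traced and non-traced endothelial and ependymal cells. Right, cumulative share of cells (y axis, percent) at or below a given bGH share of bGH and SV40 UMIs (x axis, percent); the curve of the members lies between those of non-traced endothelial and traced ependymal cells.

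Of 3946 genes of at least 50 CPM in either sum, 82 were higher in members by 1 or more on the log2 scale, at least 2-fold (2.08%), and 20 were lower (0.507%). 97.4% of the genes thus differed by less than 1. The 82 include the tdTomato and bGH rows. A gene near 50 CPM rested on few molecules in 64 cells: in 20 of the 82 higher genes, 1 member held at least 25% of the UMIs, and in Myh11, a smooth muscle myosin gene, 1 member held 66.7%. Of the 82 higher genes, 55 had a higher level in traced ependymal cells than in non-traced endothelial cells, and of the 20 lower genes, 19 had a lower level there. The same shares over all 3946 genes were not counted, so these 2 counts are a description and cannot be read as an excess. Ependymal transcripts in members are described next, and their part in the differences was not tested.

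5 members held 9 or 10 of the 10 ependymal genes (Ccdc153, Fam183b, Tmem212, Foxj1, Rsph1, Pifo, Dnah12, Dynlrb2, Rarres2 and Kif9, most of them genes of motile cilia), with 51 to 90 UMIs of them and 0.374% to 0.520% of the cell's UMIs. The other 59 members held at most 2 of these genes, and 38 members held none. Depth moved with this: the 5 had 10968 to 24093 UMIs. All 5 had a UMI of all 8 gate genes. In the non-traced library, 722 of 23906 endothelial cells (3.02%) held at least 5 of the ependymal genes, against 7.81% of members (2.59 to 17.3). The summed ependymal list stood at 561 CPM in members and 241 CPM in non-traced endothelial cells, and at 48.6 against 36.9 CPM once cells with at least 5 of the genes were left out of both. In traced ependymal cells it stood at 9148 CPM. Of the 10 genes with the largest differences upward, Elmod1 (61.8 against 9.94 CPM, 8 of 64 members), Ednrb, an endothelin receptor (67.7 against 14.1 CPM, 13 members), Nnat (372 against 121 CPM, 22 members) and Fhl1 (60.3 against 19.1 CPM, 16 members) stood at 636, 459, 6834 and 416 CPM in traced ependymal cells. One member held 39.9% of the Nnat UMIs.

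Without the cells that held at least 5 ependymal genes, 62 of 3899 genes were higher (1.59%) and 24 were lower (0.616%). Of the first 82 and 20 genes, 47 and 18 were among them.

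**Figure D3:**
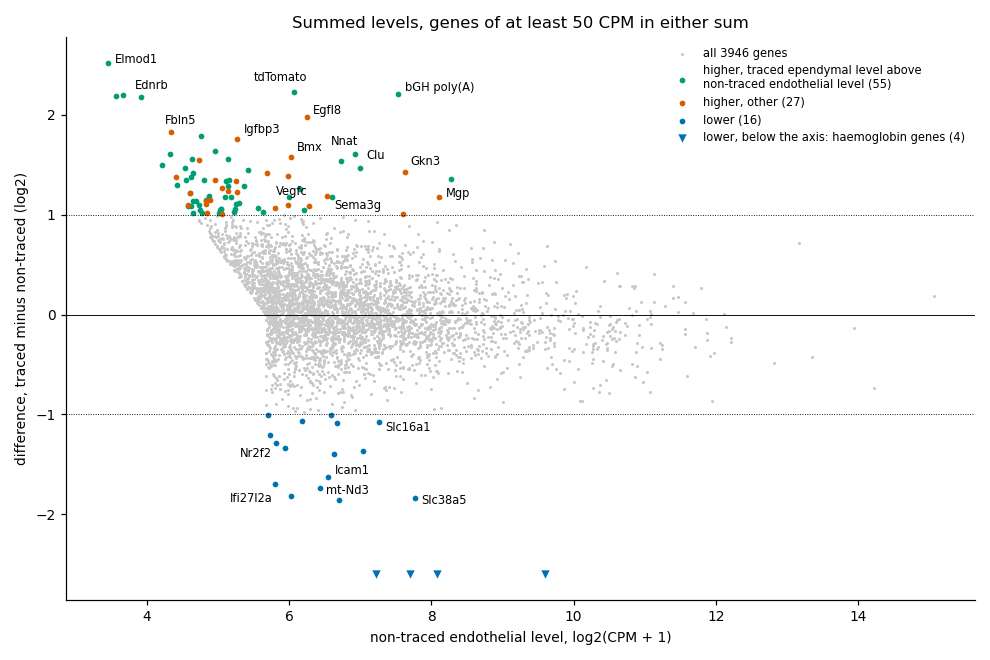
Each point is 1 of 3946 genes, with its level in non-traced endothelial cells (x axis, log2(CPM + 1)) and its difference, members minus non-traced (y axis, log2); dotted lines mark 1 and -1. Green, higher genes with a higher level in traced ependymal than in non-traced endothelial cells (55); orange, the other higher genes (27); blue, lower genes (20, of which 4 haemoglobin genes are drawn as triangles at the lower edge).

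Genes of arterial endothelium were higher in the members. Of 18 arterial genes, 16 had at least 50 CPM, and of these 8 were higher in members by 1 or more (against 2.08% of all genes) and none was lower. The median difference of the 16 was 0.90, against 0.05 over all genes. Summed, the list stood at 5036 CPM in members and 2954 CPM in non-traced cells, 1.71 times as high (1.65 to 1.76).

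Gkn3, a secreted protein gene used as a marker of brain arteries (chromosome 6, GRCm38, 87383256 to 87388935), had a UMI in 27 of 64 members, with up to 56 UMIs in a cell and a median of 837 CPM in the cells that had one. Its summed level was 531 CPM in members (478 to 589) and 196 in non-traced cells (195 to 198), a ratio of 2.70 (2.43 to 3.0), and 20.7% of non-traced cells had a UMI. After thinning the shares were 21.9% (12.5 to 34.0) and 8.62%. No traced ependymal cell had a UMI of it. Bmx, a non-receptor tyrosine kinase of arterial endothelium, stood at 193 against 64.1 CPM, with a UMI in 28 of 64 members (43.8%) and in 22.7% of non-traced cells. After thinning the shares for Bmx were 12.5% (5.55 to 23.2) and 5.10%.

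The other higher genes of the list were spread over more than a few members as well, Fbln5 excepted. Vegfc, a growth factor of the VEGF family, stood at 165 against 62.6 CPM (25 of 64 members), and Sema3g, an arterial semaphorin, at 210 against 91.6 CPM (32 members). Mgp, a matrix protein that binds bone morphogenetic proteins, stood at 622 against 274 CPM (25 members), and Gja4, the connexin 37 gene, at 82.4 against 34.3 CPM (18 members). Fbln5, an elastic fibre protein, stood at 70.6 against 19.2 CPM, but it was found in 10 members and 1 of them held 39.6% of its UMIs. Clu stood at 355 against 127 CPM and is high in traced ependymal cells too (3954 CPM). The remaining 8 genes differed by less than 1, among them Tm4sf1 (1608 against 1158 CPM), Sox17 (456 against 386 CPM), the Notch ligand gene Dll4 (83.9 against 65.0 CPM) and Hey1, a Notch target (94.2 against 87.8 CPM).

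Genes outside the list showed the same order of size. Egfl8 (chromosome 17, GRCm38, 34613349 to 34615971), an EGF-domain protein gene whose annotation overlaps Gm20460 on the same strand, stood at 300 CPM in members and 75.4 in non-traced cells, a ratio of 3.98 (3.45 to 4.57), with a UMI in 32 of 64 members and 24.7% of non-traced cells. Igfbp3, a binding protein of insulin-like growth factors, stood at 129 against 37.7 CPM (19 members). Tmem100, an endothelial gene downstream of BMP signalling, stood at 137 against 50.7 CPM (22 members). Cep85l (76.5 against 25.5 CPM), Gucy1a3, a subunit of the nitric oxide receptor (54.4 against 20.4 CPM), Gper1 (78.0 against 30.1 CPM), Tspan2 (92.7 against 26.2 CPM) and Zeb2 (95.6 against 30.1 CPM) completed the 10 genes with the largest upward difference, taken over all genes and over those no higher in traced ependymal than in non-traced endothelial cells. In traced ependymal cells Cep85l, Gucy1a3, Gper1, Tspan2 and Zeb2 stood at 12.4, 0.11, 0.56, 35.5 and 71.4 CPM. The non-traced ependymal levels were 5.50, 1.95, 2.86, 36.7 and 75.8 CPM, so that Cep85l was higher in the traced library there too.

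Venous genes lay the other way. Of 13 venous genes, 8 had at least 50 CPM, 3 of these were lower by 1 or more (against 0.507% of all genes) and none was higher, with a median difference of -0.53 over the 8. The list stood at 1682 CPM in members and 2556 in non-traced cells, a ratio of 0.66 (0.62 to 0.70). Slc38a5, a glutamine transporter gene of venous and capillary endothelium (chromosome X, GRCm38, 8271133 to 8280179), stood at 60.3 CPM (43.3 to 81.8) against 218 (216 to 220), with a UMI in 18 of 64 members (28.1%) and in 57.8% of non-traced cells. Icam1, a leukocyte adhesion molecule, stood at 29.4 against 93.01 CPM, and Nr2f2, the transcription factor of venous identity, at 23.5 against 60.8 CPM with a UMI in 9 members. Vwf (98.6 against 118 CPM) and Vcam1 (137 against 118 CPM) differed by less than 1. Lcn2 had no UMI in members and stood at 10.5 CPM in non-traced cells, at least 2.38-fold lower when 3 UMIs in the members' sum are taken as the limit. Ackr1 and Lrg1 had none either and stood at 4.39 and 6.50 CPM.

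Capillary genes were mostly a little lower. Of 12 genes, all with at least 50 CPM, 1 was lower by 1 or more (Slc16a1, above), against 0.507% of all genes. None was higher, and the median was -0.39. The list stood at 8591 against 10169 CPM, a ratio of 0.84 (0.82 to 0.87). Car4, a carbonic anhydrase of capillary surfaces, stood at 644 against 1029 CPM and had a UMI in 41 of 64 members (64.1%) and 85.2% of non-traced cells. Slc7a5, a large amino acid transporter, stood at 280 against 514 CPM, whereas the chemokine gene Cxcl12 stood at 2870 against 2827 CPM.

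**Figure D4:**
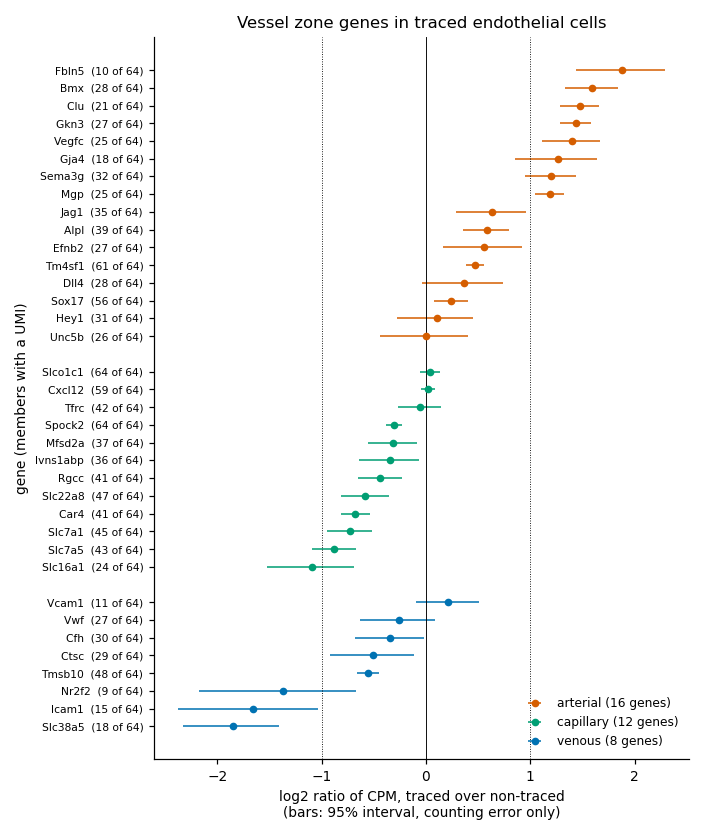
Log2 ratio of CPM, members over non-traced endothelial cells (x axis; bars are 95% intervals, counting error only), for the arterial (16), capillary (12) and venous (8) genes of at least 50 CPM, each row with the number of members that had a UMI. Dotted lines mark 1 and -1; 8 arterial genes lie beyond 1, and 3 venous genes and 1 capillary gene beyond -1.

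Mural cells (pericytes and smooth muscle) sit on the same vessels, and their transcripts were present in both groups. 12 of 64 members (18.8%, 10.1 to 30.5) and 11.7% of non-traced endothelial cells held at least 5 of 14 mural genes. The mural list made up 0% to 1.75% of a member's UMIs (median 0.0122) and 0% to 5.66% of a non-traced cell's (median 0.0179). Summed it stood at 2675 against 1954 CPM, with 13 of the 14 genes found in members, Rgs5 at 1240 against 854 CPM and Pdgfrb at 76.5 against 45.6 CPM. Without all cells that held at least 5 ependymal or at least 5 mural genes, 48 members and 20497 non-traced cells were left, and the mural list stood at 297 against 451 CPM. There the arterial list was 1.88 times as high in members (1.80 to 1.95), the venous list stood at 0.71 (0.67 to 0.76) and the capillary list at 0.88 (0.85 to 0.91) of the non-traced level. In the same cells Gkn3 stood at 634 against 208 CPM and Bmx at 222 against 67.5 CPM. The arterial and venous differences were thus present without these cells. Astrocyte, oligodendrocyte, fibroblast and neuron lists summed to 137, 22.1, 20.6 and 55.9 CPM in members, against 107, 31.2, 37.5 and 20.2 CPM in non-traced cells.

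Members varied widely along these lists. For each cell the mean log level of the arterial, capillary and venous lists was expressed in standard deviations (SD) of the non-traced endothelial cells, and the highest score gave its zone. 35 of 64 members scored highest for arterial (54.7%, 41.7 to 67.2), against 30.8% of non-traced cells (30.2 to 31.4). 21 members scored highest for capillary (32.8%, 21.6 to 45.7), against 42.4%, and 8 for venous (12.5%, 5.55 to 23.2), against 26.7%. These zones are ranges of a score and not cell types: in 9 members and 17.0% of non-traced cells the best and second scores were within 0.25 SD. The arterial score of members ran from -1.09 to 4.62, with a median of 0.10 and an SD of 1.55. It exceeded 2 in 13 members (20.3%, 11.3 to 32.2) and in 5.79% of non-traced cells. No member exceeded 2 in the capillary or the venous score (interval 0% to 5.60%). The non-traced shares there, 0.251% and 4.30%, lie inside that interval. All 27 members with a UMI of Gkn3 scored highest for arterial, a list that holds Gkn3, and so did 29 of the 32 members with a UMI of Egfl8, which no zone list holds. Of the 18 members with a UMI of Slc38a5, which the venous list holds, 10 scored highest for capillary, 6 for venous and 2 for arterial.

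Of the 59 members with fewer than 5 ependymal genes, 32, 20 and 7 scored highest for arterial, capillary and venous. Among the 722 non-traced endothelial cells with at least 5 ependymal genes, 59.4% scored highest for arterial. The arterial list holds genes that are high in ependymal cells, such as Clu (3661 CPM in non-traced ependymal cells). In those ependymal cells the arterial, capillary and venous lists stood at 4765, 751 and 291 CPM. How much of this share follows from the make-up of the lists was not tested.

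**Figure D5:**
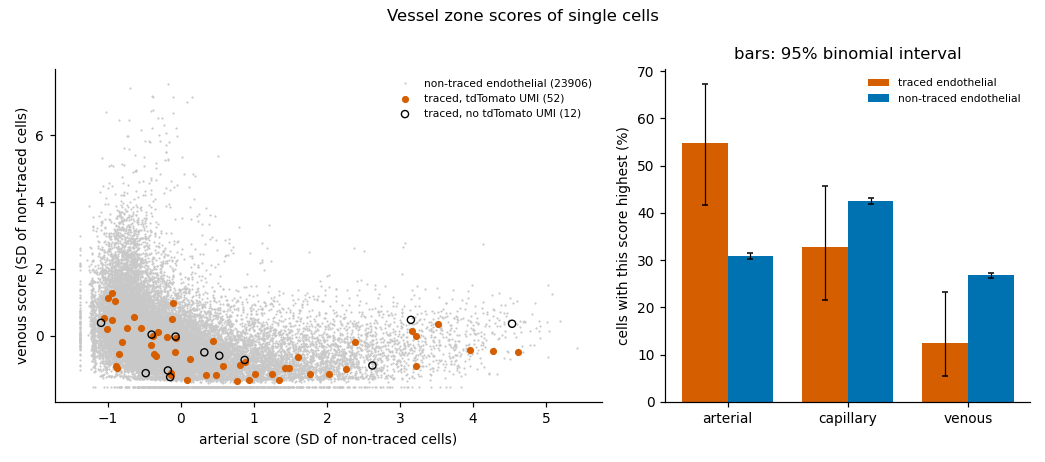
Left, arterial score (x axis) against venous score (y axis), both in SD of the non-traced endothelial cells, for 23906 non-traced cells (grey) and the 64 members (orange with, open circles without a tdTomato UMI). Right, share of cells with each score highest (y axis, percent; bars are 95% binomial intervals); 54.7% of members and 30.8% of non-traced cells scored highest for arterial.

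Reporter transcripts were found in members of every zone. A tdTomato UMI was seen in 30 of 35 members of highest arterial, 15 of 21 of highest capillary and 7 of 8 of highest venous score, with summed levels of 372 CPM (314 to 437), 250 CPM (183 to 332) and 217 CPM (136 to 328). The intervals of all 3 levels overlapped. The bGH share of bGH and SV40 UMIs was 37.3% (34.3 to 40.4), 30.9% (26.4 to 35.7) and 31.1% (25.4 to 37.4). In non-traced cells the zones lay closer together, with tdTomato levels of 71.2, 63.0 and 65.0 CPM and SV40 levels of 1679, 1664 and 1721 CPM. Of the 12 members without a tdTomato UMI, 5 scored highest for arterial, 6 for capillary and 1 for venous. Of the 20 members with more bGH than SV40 UMIs, 13 scored highest for arterial (65.0%, 40.8 to 84.6).

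Some lower genes were also lower in the other cells of the traced library. The genes Hbb-bs, Hba-a1, Hba-a2 and Hbb-bt of red blood cell haemoglobin had no UMI in members and summed to 1400 CPM in non-traced endothelial cells, at least 317-fold lower against a limit of 3 UMIs. The non-traced sum was uneven. A Hbb-bs UMI was found in 11.5% of these cells, with a median of 145 CPM in them, and 1 cell held 6659 of the 171931 Hbb-bs UMIs. The fold thus describes sums and not typical cells. All 4825 traced cells together held 6 haemoglobin UMIs, whereas 16.5% of non-traced endothelial cells and 15.9% of non-traced ependymal cells had at least 1. The mitochondrial gene mt-Nd3 stood at 25.01 against 85.8 CPM in endothelial cells and at 38.9 against 128 CPM in ependymal cells. Among the other genes with the largest downward difference were Ccdc85b (27.9 against 104 CPM), the interferon-inducible gene Ifi27l2a (17.7 against 64.6 CPM), the mitochondrial carbonic anhydrase gene Car5a (36.8 against 98.4 CPM) and Apod, a lipid carrier (50.02 against 130 CPM). They stood at 6.55, 0.02, 0.04 and 0.16 CPM in traced ependymal cells, against 12.6, 1.26, 1.15 and 3.67 CPM in non-traced ones. Gkn3 (0 against 3.67 CPM) and Mgp (0.07 against 19.1 CPM), picked as examples, were lower there too, although both were higher in members. These ependymal levels are low and are given as values only. Whether the decrease of Ccdc85b, Ifi27l2a, Car5a and Apod was shared by the whole library was not tested. Among genes no lower in traced ependymal than in non-traced endothelial cells, the largest downward differences after Nr2f2 stayed under 1. They included the mitochondrial genes mt-Atp6 (135 against 262 CPM), mt-Rnr1 (2154 against 3939 CPM) and mt-Nd4 (809 against 1321 CPM) and Nme1, a nucleoside diphosphate kinase gene (55.9 against 107 CPM).

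Transcripts of both sexes were found among the members. 21 of 64 members had Xist UMIs and no UMI of Ddx3y, Eif2s3y, Kdm5d or Uty, 28 had UMIs of these Y-linked genes and none of Xist, 3 had both and 12 had neither. The shares of 32.8% and 43.8% compare with 33.3% and 37.2% of non-traced endothelial cells, which lie inside the intervals of the members (21.6 to 45.7 and 31.4 to 56.7).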

How the data were processed

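The deposited tables hold counts (UMIs for each gene in each cell), 1 table for each library, with as many cells as the study analysed. Per the labels and the methods of the study, the authors made them from a Chromium 3′ kit with Cell Ranger 3.0.2 and STAR 2.5.1b on mm10 with reporter sequences added, removed cells with under 50 genes or over 10% mitochondrial genes, and did not normalise them. Reads that match several genes, overlapping genes or several parts of the reporter may be lost or split at that step. Labels and methods name different viability dyes. The libraries held 46530507 (traced) and 233318692 (non-traced) UMIs. A gene missing from 1 table was set to 0 there. No cell was removed, doublets were kept and no doublet caller was run.

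Cells were gated as described, counts were summed over the gated cells of each library, scaled to CPM and compared as log2(CPM + 1), which shrinks differences of low genes, wherever 1 of the sums reached 50 CPM. A difference of 1 or more was counted. Poisson, Clopper-Pearson and conditional binomial intervals (95%) were exact, and a count of 0 was read against 3 UMIs. Where a share of cells is given as thinned, each cell was first thinned to 1000 UMIs (seed 1). All other shares of cells were unthinned and not matched for depth. With 1 library per group no test was made. Zone scores were means of log(1 + UMIs per 10000). The genes named were the 10 of largest difference in each direction (a UMI in at least 10% of members, or of non-traced cells for lower genes), the same among genes no higher (or, for lower genes, no lower) in traced ependymal than in non-traced endothelial cells, the gate and reporter rows, Clec9a, Prom1 and Ptprc, and, in each of 27 gene lists, the 2 members of highest non-traced level and the 2 of largest difference. Other list members named, such as Mgp, Hey1 and Car4, were chosen after their values were seen. The members, lists and rule were chosen with earlier results of these data known. Alternatives are given in the closing section. Gene positions are from GENCODE M21 (GRCm38). The scripts were tested on simulated data and used Python 3.11.15, numpy 2.4.6, scipy 1.17.1 and pandas 2.3.3.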

Additional observations from a re-analysis of the deposited data

How the results depend on the processing

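No paired analysis was possible because each group was 1 library. With 64 cells, a gene of 50 CPM rests on few molecules, and differences between animals or sorts cannot be told apart from differences between the groups. The number of genes counted depended on the limits set: with a filter of 20, 100 or 0 CPM, 279, 26 and 1557 genes were higher and 75, 9 and 1060 lower, and 48 were higher with a pseudocount of 10. With cells thinned to 1000 UMIs, where 1 UMI is worth 15.6 CPM, 532 were higher and 322 lower, and Elmod1 and Zeb2 turned to -2.76 and -0.62. The summed ependymal list was 1.21 higher on the log2 scale in the main comparison. It was 0.91 higher with gate genes at 1% of UMIs, 1.80 without cells under both gates, 0.87 after thinning and 0.996 without the 3 deepest members. Subtraction of the ependymal part gave 0.075, but that step was scaled to remove the excess of this same list. Its small value was thus set in advance and is no result. Chosen after the data were seen, leaving out cells with at least 5 ependymal genes gave 0.39. Leaving out those with at least 5 ependymal or mural genes, also added later, gave 0.87, a traced endothelial share of 0.998%, 33 lower genes and a tdTomato difference of 2.45 (2.23 in the main comparison). Beyond the cells and genes each alternative removes, the cause of these changes was not tested. The tdTomato difference ranged from 2.09 to 2.45 over 14 alternatives and the arterial-highest share from 52.1% to 56.3% over 10. Of 32 named genes past 1, 19 stayed past 1 under all 14 alternatives run on them.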

Other observations

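Of 11 inflammatory adhesion genes, 4 had at least 50 CPM. Of these 4, 1 (Icam1) was lower in the traced endothelial cells by 1 or more on the log2 scale, against 0.507% of all genes, and none was higher. The others were too low for that comparison and differed in direction. Ptgs2, the inducible cyclooxygenase gene, had 3 UMIs in 3 of 64 members (4.41 CPM), against 37.9 CPM and a UMI in 13.1% of non-traced endothelial cells, a ratio with a counting interval of 0.02 to 0.34. The selectin genes Sele and Selp had no UMI in members and 0.80 and 0.71 CPM in non-traced cells, levels that 64 cells could not show. Ccl2 went the other way, with 6 UMIs in 2 members (8.83 against 0.31 CPM), of which 1 member held 66.7%. Tgtp1, an interferon-inducible GTPase gene, stood at 36.8 against 10.2 CPM with a UMI in 15 of 64 members and 8.13% of non-traced cells. These last 5 genes lay below 50 CPM in both sums, and Ptgs2, Sele and Selp were chosen after their values were seen.

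Of 12 cell cycle genes, 4 had a UMI in members, and together the list gave 5 UMIs in 64 cells (7.36 CPM, against 12.7 CPM in non-traced endothelial cells), a ratio of 0.58 with a counting interval of 0.19 to 1.36, so that no difference was detectable at this depth. Without cells that held at least 5 ependymal genes the levels were 3.35 and 9.35 CPM, and traced ependymal cells stood at 122 CPM. Of 10 genes that were higher in members (Gkn3, Bmx, Mgp, Fbln5, Egfl8, Vegfc, Sema3g, Igfbp3, Clu and Tmem100), at least 5 were found together in 26 of 64 members (40.6%) and 16.5% of non-traced cells, and none of them in 13 members (20.3%) and 35.5% of non-traced cells. These 10 were picked for their differences, so the shares are a description.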
